A study of Mus musculus with 10 samples.

Results

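The 6 genes described here encode the main carriers by which liver cells take up organic anions and bile acids from blood: Slco1a1, Slco1a4, Slco1b2, Slco2b1, Slc10a1 and Slc22a7. They were chosen by name. Each was read by the probe set with the highest mean over the 10 arrays among the probe sets annotated to that symbol alone. The carriers had 14 such probe sets, and all 6 genes were among the 11061 genes whose mean signal passed the filter on low signal.

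Liver RNA came from female mice of 2 inbred strains, C57BL/6J, here B6, and DBA/2J, here D2. They received a high-fat, high-cholesterol diet, and livers were taken after 0, 1, 4, 12 and 21 weeks of it. Each RNA pool combined 5 mice of 1 strain at 1 week in equal amounts and was measured on 1 Affymetrix Mouse Genome 430 2.0 array. The series thus held 10 arrays, 5 per strain, with 1 array per strain at week 0 and 4 on the diet. The age of the mice is not given in the sources used here, and weeks on the diet and age cannot be told apart. The spread between mice lies within each pool and cannot be seen. The week 0 group is 1 pool per strain, and p-values measure the spread between pools of different weeks.

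Hepatocytes take up solutes through the sinusoidal membrane, which faces the blood. Slc10a1 is the sodium-dependent bile acid carrier NTCP, the main route by which conjugated bile acids return to the liver. The Slco genes encode organic anion transporting polypeptides, which work without sodium and carry bile acids, bilirubin, steroid conjugates, thyroid hormone and many drugs. Slc22a7 encodes the organic anion transporter OAT2, of the solute carrier family that handles small organic anions. Bile acids taken up in this way are passed on into bile by ABC transporters of the canalicular membrane.

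Slco1b2, Slco1a4 and Slco1a1 lie in a cluster of Slco genes on chromosome 6. Slco2b1 lies on chromosome 7, Slc10a1 on chromosome 12 and Slc22a7 on chromosome 17. Their NCBI gene identifiers are 28248 (Slco1a1), 28250 (Slco1a4), 28253 (Slco1b2), 101488 (Slco2b1), 20493 (Slc10a1) and 108114 (Slc22a7). RefSeq lists the protein-coding genes of this stretch in the order Slco1c1, Slco1b2, Gm5724, Slco1a4, Slco1a1, Gm6614, Slco1a6 and Slco1a5. Gm5724 and Gm6614 had no single-symbol probe set. The probe sets of Slco1c1, Slco1a6 and Slco1a5 had mean signals of 1.97, 1.14 and 2.21 on the log2 scale, below the filter at 3.74. The values of the related genes within the cluster could be mixed where a probe binds a near-identical copy, and the annotation used here does not list the bases of the probes.

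RefSeq's promoter table (GRCm38.p6) held 5 of the 6 carriers, all but Slc22a7. Where several starts were listed (2 for Slc10a1, 3 for Slco2b1), the most upstream one was taken, and the others were not searched. The 250 bases before that start are shown, 5′ to 3′ on the gene's strand. They are given for the 3 carriers of the chromosome 6 cluster, whose signals behaved differently, and for Slc10a1. The regions were chr6:141946963-141947212 (minus strand) for Slco1a1, chr6:141856221-141856470 (minus strand) for Slco1a4, chr6:141629268-141629517 (plus strand) for Slco1b2 and chr12:80968706-80968955 (minus strand) for Slc10a1. Capitals mark matches to the nuclear receptor half-site AGGTCA or TGACCT, the HNF1 half-site GTTAAT or ATTAAC, and the STAT site TTCNNNGAA, each searched on both strands.
Slco1a1: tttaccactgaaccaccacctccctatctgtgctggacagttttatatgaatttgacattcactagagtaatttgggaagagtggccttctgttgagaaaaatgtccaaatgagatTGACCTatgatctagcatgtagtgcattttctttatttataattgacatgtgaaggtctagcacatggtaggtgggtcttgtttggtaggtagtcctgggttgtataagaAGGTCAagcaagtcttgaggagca
Slco1a4: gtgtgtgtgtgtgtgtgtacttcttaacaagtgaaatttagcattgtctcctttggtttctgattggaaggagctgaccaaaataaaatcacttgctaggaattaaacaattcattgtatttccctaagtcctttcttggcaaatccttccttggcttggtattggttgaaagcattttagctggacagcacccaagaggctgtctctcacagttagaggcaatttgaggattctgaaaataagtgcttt
Slco1b2: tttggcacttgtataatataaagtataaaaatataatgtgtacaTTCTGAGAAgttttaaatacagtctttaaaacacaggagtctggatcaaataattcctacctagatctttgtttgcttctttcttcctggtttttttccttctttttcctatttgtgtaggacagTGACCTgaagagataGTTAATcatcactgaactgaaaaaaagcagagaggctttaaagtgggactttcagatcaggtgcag
Slc10a1: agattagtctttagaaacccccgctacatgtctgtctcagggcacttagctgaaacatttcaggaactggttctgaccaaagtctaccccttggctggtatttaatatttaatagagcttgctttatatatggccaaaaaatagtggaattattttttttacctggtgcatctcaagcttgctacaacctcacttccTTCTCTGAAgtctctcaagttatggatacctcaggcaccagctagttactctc

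The Slco1a1 window held TGACCT at position -134 and AGGTCA at position -24, counted back from the start. The Slco1b2 window held GTTAAT at -66, TGACCT at -81 and TTCTGAGAA at -206, and the Slc10a1 window held TTCTCTGAA at -53. No match to these letters stood in the windows of Slco1a4 and Slco2b1. Among 27025 promoters of the same length (250 bases before and 50 after the start), 7.22% held the HNF1 half-site, 15.98% the nuclear receptor half-site and 8.42% the STAT site, and no motif overlapped another in these windows. A match of letters is a description of the sequence and was not set against binding.

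The arrays differed in overall brightness before normalisation. The trimmed mean of the deposited signals, leaving out 2% at each end, ranged from 56.2 to 89.1 and was lowest in both week 0 arrays. After normalisation the mean correlation of an array with the others of its strain ranged from 0.942 to 0.973. The 15 hepatocyte markers measured, such as albumin and apolipoprotein genes, had a median signal between 12.01 and 12.49 in each group of arrays and changed by a median between −0.10 and 0.03 from week 0. Of 10 cholangiocyte markers, 1 passed the filter on low signal. All levels below are log2 normalised signals of 1 probe set, differences are taken between values of log2(signal + pseudocount), and levels of different carriers are not compared since each probe set binds differently.

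**Figure D1:**
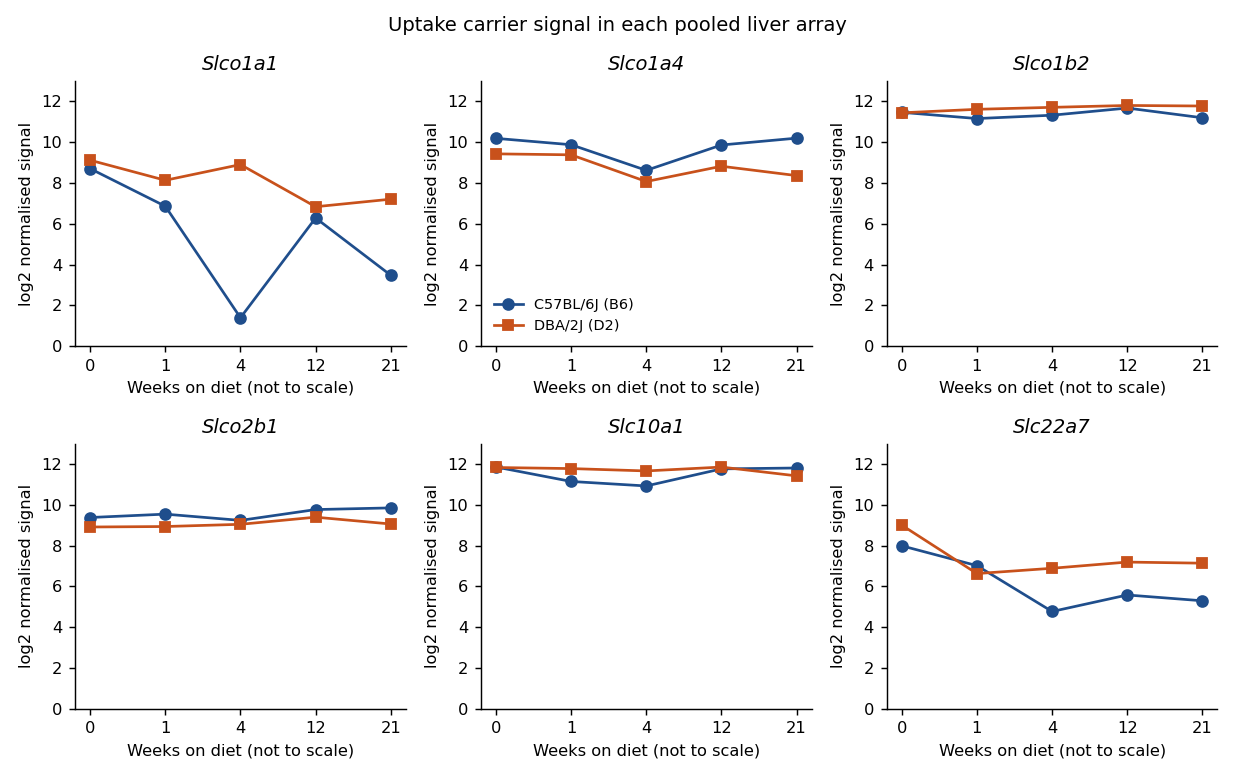
Log2 normalised signal (vertical axis) of the 6 uptake carriers at 0, 1, 4, 12 and 21 weeks on the diet (horizontal axis, not to scale) in B6 (blue circles) and D2 (orange squares). Each point is 1 array of a pool of 5 mice. Slco1a1 was lowest in B6 at weeks 4 (1.39) and 21 (3.47), where its deposited signal lay below 16 and its distance from other arrays is uncertain in size. Slco1b2 stayed between 11.16 and 11.80.

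The carriers differed widely in how far their signals moved over the 10 arrays. Slco1a1 had a range of 7.73 on the log2 scale from its lowest to its highest array. Its lowest array, B6 at week 4, had a deposited signal of 1.79, a level at which the size of a log2 difference is uncertain. Slc22a7 had a range of 4.23, at least as wide in 1.05% of genes. Slco1a4 had a range of 2.13, at least as wide in 9.93% of genes. The ranges of Slco2b1 (0.94), Slc10a1 (0.93) and Slco1b2 (0.64) lay near or below the median of all genes, 0.89.

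The first comparison set D2 against B6 over all 5 weeks. Slco1a4 and Slco2b1 were lower in D2 at each of the 5 weeks and passed the test. The other 4 carriers had higher mean signals in D2 and did not pass. In all, 2 of 6 carriers were thus called, at an adjusted p under 0.05, against 7.98% of all 11061 genes in either direction and 4.08% lower in D2. An unadjusted p under 0.05 was found for 5 of 6 carriers and 24% of all genes, and the carriers were chosen with earlier results of these data known. The median difference of the 6 carriers was 0.26, beside 0.01 over all genes tested. The B6 and D2 ranges overlapped for each of the 6 carriers.

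Slco1a4 encodes a carrier of bile acids, steroid conjugates and cardiac glycosides, found at the sinusoidal membrane and at the blood-brain barrier. Its signal in B6 was 10.19, 9.88, 8.62, 9.86 and 10.20 at weeks 0, 1, 4, 12 and 21. In D2 it was 9.43, 9.38, 8.07, 8.82 and 8.36 at the same weeks. Both strains had their lowest signal at week 4, and B6 at week 4 lay below D2 at weeks 0, 1 and 12, so the groups overlapped.

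The mean of Slco1a4 was 9.75 ± 0.65 over the B6 arrays and 8.81 ± 0.60 over the D2 arrays (SD, n = 5 each). Taking D2 minus B6 week by week gave −0.76, −0.50, −0.55, −1.04 and −1.84 at weeks 0, 1, 4, 12 and 21. With week as a block, limma gave −0.94 ± 0.19 (SE, adjusted p = 0.0222), a 1.91-fold lower signal in D2. The call was lost without the B6 week 0 array (adjusted p = 0.0503), without either week 12 array (up to 0.0800), over the 4 fed weeks alone (0.0501), without the week block (0.131) and without the intensity trend in the variance model (0.0522). With week as a block, an array without its partner does not inform the strain difference. Leaving out either array of a week is thus nearly 1 test, and for week 0 it is nearly the fit over the 4 fed weeks. Without the D2 week 0 array the adjusted p was 0.0486. The difference stayed between −1.05 and −0.71 over all alternatives run.

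Slco2b1 encodes a carrier of sulfated steroids that is found in liver, gut and other tissues. Its signal in B6 was 9.38, 9.55, 9.24, 9.77 and 9.85 at weeks 0, 1, 4, 12 and 21. In D2 it was 8.92, 8.94, 9.05, 9.40 and 9.06. The strains differed least at week 4, by −0.19, and most at week 21, by −0.79, and D2 at week 12 lay above B6 at weeks 0 and 4.

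The mean of Slco2b1 was 9.56 ± 0.26 over the B6 arrays and 9.07 ± 0.19 over the D2 arrays (SD, n = 5 each), and limma gave −0.49 ± 0.10 (SE, adjusted p = 0.0248), a 1.40-fold lower signal in D2. A second probe set of the gene, at a mean of 8.39, was also lower in D2 at all 5 weeks, by −0.39. Another, at a mean of 3.02 and below the filter, differed by 0.64 the other way. The mean over the 3 probe sets gave −0.08 (adjusted p = 0.868). The call was also lost without any single array other than those of week 4 (adjusted p up to 0.0901), with arrays centred on their medians (0.0643), over the 4 fed weeks alone (0.0596), without the week block (0.0516) and without the intensity trend (0.0620).

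Having D2 below B6 at all 5 weeks, as Slco1a4 and Slco2b1 did, held for 11.2% of all genes. Having D2 above B6 at all 5 weeks, as Slco1a1 did, held for 11.7%.

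**Figure D2:**
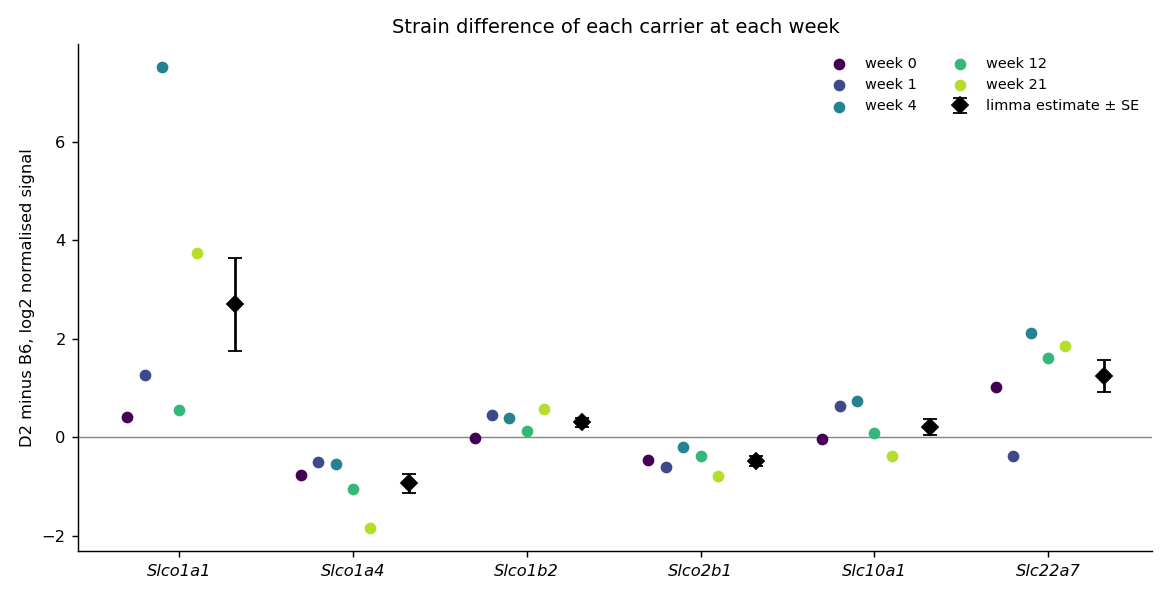
D2 minus B6 in log2 normalised signal (vertical axis) for each carrier at each of the 5 weeks (coloured points), with the limma estimate over all weeks and its standard error (black diamonds). The Slco1a4 and Slco2b1 points all lie below 0. The Slco1a1 estimate of 2.70 averages differences from 0.41 (week 0) to 7.51 (week 4, uncertain in size since the B6 signal lay below 16).

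Slco1a1 encodes a carrier of bile acids and steroid conjugates and is known for higher expression in male than in female mice. Its signal in B6 was 8.70, 6.86, 1.39, 6.28 and 3.47 at weeks 0, 1, 4, 12 and 21. In D2 it was 9.12, 8.13, 8.90, 6.84 and 7.21. B6 at week 0 lay above D2 at weeks 1, 12 and 21, so the groups overlapped, and the lowest signals by far were B6 at weeks 4 and 21.

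On the deposited scale, Slco1a1 in B6 went from 310.3 at week 0 to 1.79 at week 4 and 11.4 at week 21. These last signals lay below 16, the floor used as an alternative, under which 49.9% to 59.1% of the probe sets of an array fell, so their distance from the other arrays is uncertain in size. D2 exceeded B6 by 0.41, 1.27, 7.51, 0.55 and 3.73 at weeks 0, 1, 4, 12 and 21.

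Over the 5 weeks the difference of Slco1a1 was 2.70 ± 0.95 (SE, limma with week as a block, adjusted p = 0.131), which did not pass. It was 2.07 (adjusted p = 0.0855) with signals floored at 16, and 1.49 (adjusted p = 0.147) without both week 4 arrays. The second probe set of the gene had 1.65 in B6 at week 4 and 2.30 at week 21, against 8.42 and 7.10 in D2, and a difference of 2.90.

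Slc22a7 in B6 had signals of 7.99, 7.02, 4.77, 5.58 and 5.30 at weeks 0, 1, 4, 12 and 21. In D2 it had 9.01, 6.63, 6.89, 7.20 and 7.14. D2 was higher at 4 of the 5 weeks, and at week 1 it was lower, by −0.39. The 3 lowest arrays were B6 at weeks 4, 12 and 21, and B6 at weeks 0 and 1 lay among the D2 arrays. The difference of 1.24 ± 0.33 (SE, limma with week as a block, adjusted p = 0.0584) did not pass. Without the B6 or the D2 week 1 array it was 1.65 (adjusted p = 0.00502 and 0.00535) and passed.

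Slco1b2 encodes the liver-specific carrier of bilirubin, unconjugated bile acids and statins. Its signal in B6 was 11.46, 11.16, 11.32, 11.67 and 11.20 at weeks 0, 1, 4, 12 and 21. In D2 it was 11.44, 11.61, 11.71, 11.80 and 11.78. The strains differed by −0.02 at week 0, and D2 was higher at each of the 4 fed weeks, by 0.13 to 0.58. Over all weeks the difference was 0.30 ± 0.09 (SE, limma, adjusted p = 0.0934), which did not pass. The 5 probe sets of Slco1b2 gave differences between 0.21 and 0.33, all positive.

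Slc10a1 in B6 had signals of 11.86, 11.15, 10.93, 11.77 and 11.81 at weeks 0, 1, 4, 12 and 21. In D2 it had 11.83, 11.78, 11.67, 11.86 and 11.42. D2 exceeded B6 by 0.63 at week 1, 0.74 at week 4 and 0.09 at week 12, and was the lower one at weeks 0 (−0.02) and 21 (−0.39). The difference over all weeks was 0.21 ± 0.16 (SE, limma, adjusted p = 0.459), and its second probe set gave 0.24.

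The second comparison set the 8 fed arrays against the 2 arrays at week 0, with strain as a term. No carrier passed at an adjusted p under 0.05, against 0.651% of all genes, and 2 carriers, Slc22a7 and Slco1a1, had an unadjusted p under 0.05, as 17.5% of all genes did. Slc22a7 came nearest. The signals of Slco1a1 and Slc22a7 lay below week 0 of their own strain in all 8 fed arrays, which held for 9.94% of all genes. The median difference of the 6 carriers was −0.48, beside 0.01 over all genes. The arrays hold whole liver RNA, in which fewer cells of a type and less RNA per cell cannot be told apart.

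Slc22a7 in B6 was lower than at week 0 by a log2 difference of −0.97, −3.22, −2.41 and −2.70 at weeks 1, 4, 12 and 21. In D2 the differences were −2.37, −2.11, −1.81 and −1.86 at the same weeks. B6 at week 1 was the array nearest to week 0. In B6 at weeks 4, 12 and 21, between 18 and 19 of the 11061 genes had a lower value against week 0 than Slc22a7, and in D2 between 32 and 85 genes did.

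The mean difference of Slc22a7 was −2.18 ± 0.43 (SE, limma with strain as a term, adjusted p = 0.0532). It passed without the B6 week 1 array (−2.40, adjusted p = 0.00923), without the B6 week 4 array (−2.04, 0.0387), with only weeks 12 and 21 as fed arrays (−2.20, 0.0234), with a pseudocount of 16 (−1.96, 0.0389), with arrays centred on their medians (−2.02, 0.0386) and at the deposited scale (−1.67, 0.0137). The deposited scale also raised the median of all genes by 0.52, so that the value there stands against that shift. Leaving out 1 array gave adjusted p-values up to 0.274.

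Slco1a1 in B6 was lower than at week 0 by a log2 difference of −1.85, −7.31, −2.42 and −5.23 at weeks 1, 4, 12 and 21. Since the signals at weeks 4 and 21 lay below 16, the size of these 2 differences is uncertain. In D2 the differences were −0.99, −0.21, −2.28 and −1.91. The mean difference over both strains was −2.78 ± 1.22 (SE, limma, adjusted p = 0.275), and −2.39 (adjusted p = 0.175) with signals floored at 16. Without the B6 week 0 array the difference rests on D2 alone and was −1.35 (adjusted p = 0.824), and without the D2 week 0 array it was −4.21 (adjusted p = 0.363). The second probe set lay below week 0 in 7 of 8 fed arrays.

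**Figure D3:**
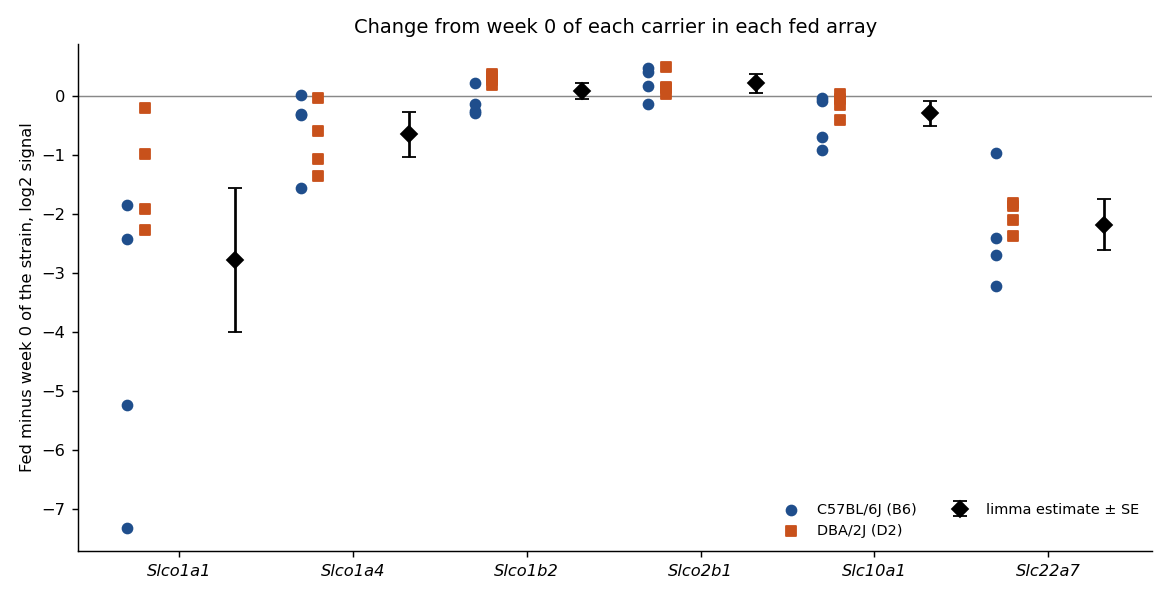
Change from week 0 of the same strain in log2 normalised signal (vertical axis) for each carrier in the 4 fed arrays of B6 (blue circles) and D2 (orange squares), with the limma estimate over both strains and its standard error (black diamonds). All Slco1a1 and Slc22a7 points lie below 0, with B6 at week 4 at −7.31 for Slco1a1, uncertain in size since the signal lay below 16.

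The remaining carriers moved less from week 0. Slco1a4 lay below it in 7 of 8 fed arrays, by −1.57 in B6 and −1.36 in D2 at week 4, and by −0.66 ± 0.39 on average (SE, limma, adjusted p = 0.402). Slc10a1 lay below it in 7 of 8 fed arrays, most in B6 at weeks 1 (−0.71) and 4 (−0.93), and by −0.30 ± 0.21 on average (adjusted p = 0.493). Its second probe set lay below week 0 in 5 of 8.

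Slco2b1 lay above week 0 in 7 of 8 fed arrays, by 0.21 ± 0.16 on average (SE, limma, adjusted p = 0.520). At the deposited scale its difference was 0.70 (adjusted p = 0.0147), beside the shift of 0.52 in the median of all genes there. Slco1b2 was above week 0 in all 4 fed D2 arrays, by 0.17 to 0.36, and below it in 3 of 4 in B6. Its difference of 0.08 ± 0.14 (adjusted p = 0.787) turned to −0.07 with its second probe set and to −0.09 with the mean of its probe sets. Its dimmest probe sets, at means of 4.48 and 3.93, gave 0.47 and −0.96, and the remaining probe set gave 0.02.

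The change on the diet was also fitted for B6 and for D2 alone, followed by a test of the strain-by-diet interaction. In B6, where 0.118% of all genes passed, no carrier did, with 2 of 6 at an unadjusted p under 0.05, beside 12.6% of all genes. The values were −4.20 ± 1.70 for Slco1a1 (SE, limma, adjusted p = 0.361) and −2.33 ± 0.64 for Slc22a7 (adjusted p = 0.231). Slc22a7 passed there without the B6 week 1 array (−2.78, adjusted p = 0.0359). In D2, where 0.118% of all genes passed as well, no carrier did, with 1 of 6 at an unadjusted p under 0.05, beside 11.5% of all genes. The values were −1.35 ± 1.70 for Slco1a1 (adjusted p = 0.823) and −2.04 ± 0.64 for Slc22a7 (adjusted p = 0.270).

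The change in D2 minus that in B6 was called in 0.00904% of all genes and in no carrier, with 0 carriers and 6.09% of all genes at an unadjusted p under 0.05. It was 2.85 ± 2.41 for Slco1a1 (SE, limma, adjusted p = 0.924) and 0.28 ± 0.90 for Slc22a7 (adjusted p = 0.987). For Slco1b2 it was 0.41 ± 0.25 (adjusted p = 0.864), and the other 3 carriers lay between −0.22 and 0.29. With errors of this size a difference between the strains in the response of Slco1a1 or Slc22a7 was not resolved. The slope on log2 of the week over the 8 fed arrays passed in 0% of all genes, with 523 genes (4.73%) and 0 carriers at an unadjusted p under 0.05, and ranged from −0.35 ± 0.32 (SE) for Slco1a1 to 0.07 ± 0.04 for Slco2b1.

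Markers of several other cell types were above week 0 in the arrays with the lowest Slco1a1 signals. The 20 macrophage markers measured, among them Adgre1, Cd68 and Csf1r, differed from week 0 in B6 by a median of 1.08, 2.58, 0.05 and 1.55 at weeks 1, 4, 12 and 21. At weeks 1 and 4 all 20 were above week 0, at week 12 it was 11 and at week 21 it was 19. Their summed normalised signal was 4193 in B6 at week 0 and 4407 to 24595 on the diet, and 4569 in D2 at week 0 and 4168 to 5871 on the diet. In D2 the medians were 0.43, −0.04, −0.07 and 0.45.

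The 12 stellate cell markers measured stood at a median of 0.23, 1.27, 0.13 and 0.61 against week 0 in B6 at weeks 1, 4, 12 and 21, with 10 of 12 above week 0 at week 4 and all 12 at week 21. In D2 their medians lay between −0.58 and 0.12. Their summed normalised signal was 2749 in B6 at week 0 and 3037 to 5047 on the diet, and 2648 in D2 at week 0 and 2188 to 2784 on the diet. The 8 lymphocyte and neutrophil markers measured stood at 0.21, 1.20, 0.13 and 0.75 in B6, and at 0.28, 0.50, 0.35 and 1.13 in D2, where the highest value was at week 21. Their summed signal was 141 in B6 at week 0 and 155 to 768 on the diet, and 100.2 in D2 at week 0 and 127 to 214 on the diet. The medians of the 12 endothelial markers stayed between −0.17 and 0.30. Of 10 cholangiocyte markers, 1 passed the filter.

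In B6, weeks 4 and 21 had the lowest Slco1a1 signals and the highest macrophage medians. Week 12 had a lower Slco1a1 signal than week 1 (6.28 against 6.86) and a lower macrophage median. At week 12, where those markers stood at 0.05 in B6 and −0.07 in D2, Slco1a1 lay at −2.42 and −2.28 and Slc22a7 at −2.41 and −1.81 against week 0. Acute phase genes, which the liver makes more of in inflammation, stood at a median of 0.48 in B6 at week 4 (13 of 17 above week 0) and between −0.14 and 0.08 in the other fed arrays. At weeks 1, 12 and 21, 12, 4 and 10 of 17 were above week 0 in B6. In D2 it was 6, 4, 2 and 8 at weeks 1, 4, 12 and 21. Single genes moved further than the medians. Saa3 in B6 went from 6.36 at week 0 to 8.71, 11.17, 6.95 and 8.71, and Saa1 in D2 from 11.46 to 10.21, 9.31, 9.10 and 10.47. Proliferation genes stood at a median of 2.19 in B6 at week 1 and 1.23 at week 4, and the hepatocyte marker medians stayed between −0.10 and 0.03. Single hepatocyte markers moved further. In D2 from week 0 to week 21, Tat went from 11.99 to 10.72 and Asgr2 from 10.02 to 10.52. Apoa1 was at 13.16 in every array after quantile normalisation. The brightest markers thus had little room to move, and these medians do not measure the share of hepatocytes. Beyond these values, the part of other cells in the low Slco1a1 and Slc22a7 signals was not tested.

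**Figure D4:**
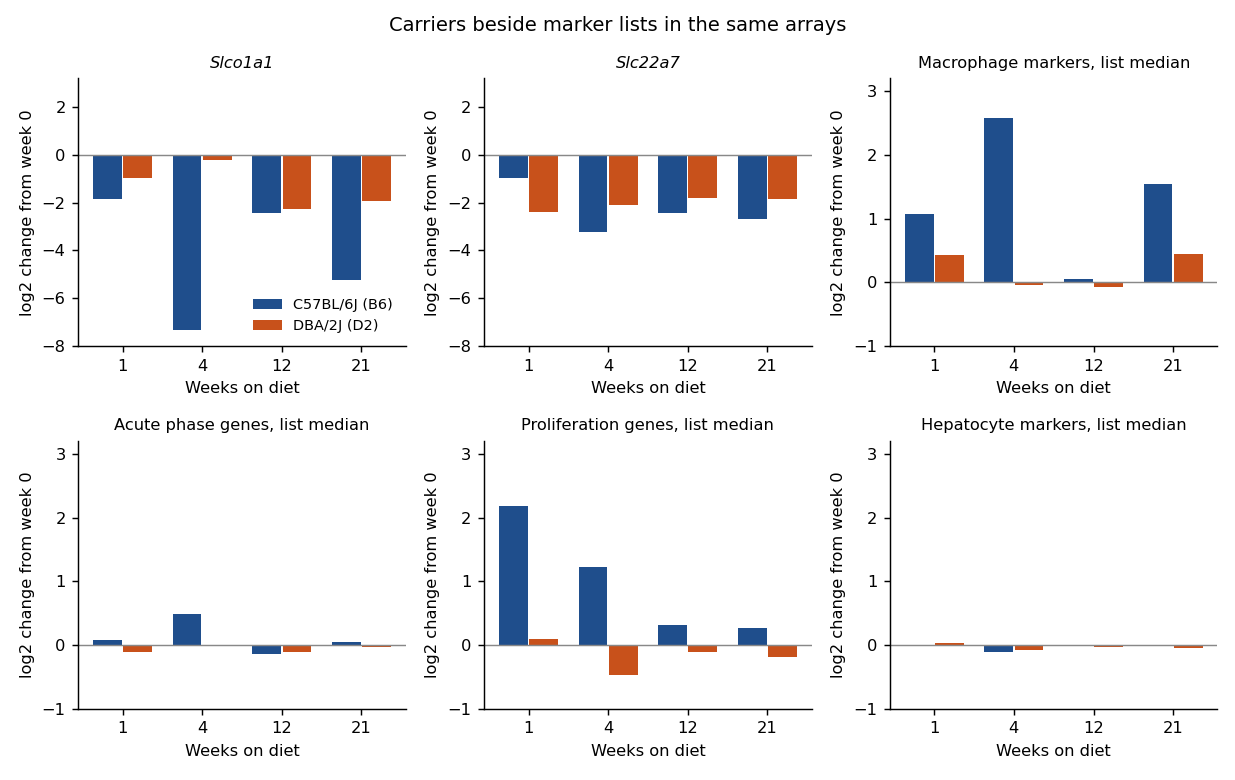
Log2 change from week 0 (vertical axis) at 1, 4, 12 and 21 weeks (horizontal axis) in B6 (blue) and D2 (orange) for Slco1a1, Slc22a7 and the median of 4 marker lists, with a wider axis for the 2 carriers. Each bar is 1 array or the median of a list in it. The largest drop of Slco1a1 (−7.31, B6 week 4, uncertain in size) stands in the array with the highest macrophage median (2.58).

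Other solute carriers were described from a list of 21 genes, of which 12 passed the filter. These belong to the Slco, Slc10, Slc16, Slc22 and Slc47 families, and the list is not limited to the sinusoidal membrane. In the strain comparison 2 of 12 were higher in D2 and none was lower, beside 3.91% of all genes higher and 4.08% lower. They were Slco2a1, a prostaglandin carrier (0.36 ± 0.09, SE, limma, adjusted p = 0.0465), and Slc22a23, an organic ion carrier without a settled substrate (0.48 ± 0.11, adjusted p = 0.0321). The median of the list was 0.00, beside 0.01 over all genes. In the diet comparison none of the 12 passed, and the median was −0.20.

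The ABC transporters and their partners that move solutes from hepatocytes into bile or back into blood were covered by a list of 13 genes, 12 of them measured. Of these, 5 were lower in D2 and none was higher, beside 4.08% and 3.91% of all genes. The list median was −0.56, beside 0.01 over all genes. Abcc4, which exports bile acids back to blood, was lower by a log2 difference of −1.03 ± 0.22 (SE, limma, adjusted p = 0.0278). Abcg2, an exporter of sulfated conjugates, differed by −0.97 ± 0.15 (adjusted p = 0.00866), and Abcc2, the canalicular exporter of bilirubin conjugates, by −0.79 ± 0.08 (adjusted p = 0.000948). Abcg5, part of the sterol exporter, differed by −0.79 ± 0.17 (adjusted p = 0.0304). Abcb11, the canalicular bile salt pump that follows Slc10a1 in the path of bile acids, had 0.21 ± 0.16 (adjusted p = 0.464). In the diet comparison none of the 12 passed.

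Of 16 bile acid synthesis genes measured, 2 were higher in D2 and none lower, with 3.91% of all genes higher and 4.08% lower. The list median was 0.06. Cyp8b1, the sterol 12-hydroxylase that sets the share of cholic acid, was higher by 2.96 ± 0.67 (SE, limma, adjusted p = 0.0350). Its signal in B6 was 10.92, 3.36, 3.63, 8.36 and 2.63 at weeks 0, 1, 4, 12 and 21. In D2 it was 11.17, 8.22, 8.72, 9.81 and 5.78. The B6 signals at weeks 1, 4 and 21 lay below the level of the filter, so the size of the difference is uncertain. Hsd3b7 was higher by 0.32 ± 0.07 (adjusted p = 0.0304). Of 22 factors known to regulate such carriers, 2 were higher in D2 and 1 lower, beside the same shares of all genes, with a list median of 0.17. Ppara, the fatty acid sensor, differed by 0.82 ± 0.18 (adjusted p = 0.0337), Cebpa by 0.42 ± 0.10 (adjusted p = 0.0483) and Ahr, the dioxin receptor, by −0.50 ± 0.10 (adjusted p = 0.0244). No gene of these lists passed in the diet comparison.

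Slco1a1 and Slco1a4 are known for sex-dependent expression in mouse liver, so other genes of that kind were read in these female livers. The counts stand beside 3.91% of all genes called higher in D2, 4.08% called lower and a median of 0.01. Of 8 male-biased genes measured, 2 were higher in D2, Elovl3 by 1.74 ± 0.29 (SE, limma, adjusted p = 0.0105) and Nudt7 by 1.21 ± 0.19 (adjusted p = 0.00793), and none was lower (list median 0.49). Of 12 female-biased genes, 3 were called higher and 1 lower in D2 (list median 0.40). Called or not, 10 of the 12 had a positive difference and 2 a negative one. Sult3a1 and Cyp3a44, for example, had a higher signal in D2 than in B6 at every week. Against the direction of most of the list, the gene called lower was Cyp2b10 (−1.19 ± 0.16, adjusted p = 0.00397). It is also a target of the xenobiotic receptors CAR and PXR. Of 11 CAR and PXR targets, 3 were lower in D2, Cyp2b10 among them, and none was higher (list median −0.19). On the diet, where 0.651% of all genes passed, Cyp2b10 passed with strain as a term, with −2.75 ± 0.51 (SE, limma, adjusted p = 0.0427). It stands in both the female-biased and the CAR and PXR list, and no other gene of these lists passed.

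The genes whose pattern over the 10 arrays was most like that of each carrier were found by Pearson's r over all genes tested, as a description. The 10 points share strain and week. For Slco1a1 they were Inhbc, a liver inhibin subunit (r = 0.978), Atp5g1 (0.971), a subunit of ATP synthase, and Elovl2 (0.961), an elongase of polyunsaturated fatty acids. For Slc22a7 they were Psmc2 (0.952), Wdr53 (0.951) and Dhrs7b (0.929), and Slc22a7 itself had an r of 0.846 with Slco1a1 over the 10 arrays (0.785 with strain means removed). For Slco1a4 they were Slc16a5 (0.980), a monocarboxylate transporter family member, Thap12 (0.972) and Smoc2 (0.950).

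For Slco1b2 the most similar gene was Man1a (0.970), a mannosidase of glycoprotein processing, and for Slc10a1 it was Tmem25 (0.942). For Slco2b1 the highest value was 0.910, for Trappc2, which went down to 0.788 with strain means removed. Among the 3 carriers of the chromosome 6 cluster, Slco1a1 and Slco1a4 had an r of −0.03 over the 10 arrays and 0.54 with strain means removed. Slco1a1 and Slco1b2 had 0.45 and 0.10.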

How the data were processed

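The authors deposited signal intensities on a linear scale for 45101 probe sets, computed with the GCOS software per the submitters' processing notes. Its version, scaling and detection calls are not given in the sources used here. The 64 control probe sets were dropped and the arrays were quantile normalised in limma 3.58.1 (R 4.3.3, with data.table (version 1.17.8) and statmod 1.5.0). A pseudocount of 1.05 (the 10th percentile of all deposited values) was added before taking log2. Of the probe sets, 34945 had 1 symbol, 932 several and 9160 none. Symbols were updated through gene identifiers to RefSeq. Each gene was read by its brightest single-symbol probe set (18193 genes), and 11061 genes lay above the 50th percentile of the probe sets' means (3.74).

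Fits used lmFit and eBayes with trend. The strain difference had week as a block (4 residual degrees of freedom) because the labels give 1 pool of each strain per week. The diet change had strain as a term (7). Changes within strains and their difference came from 4 group means (6), where the single week 0 array of a strain borrows its spread from the fed ones. The slope on log2(week) used the 8 fed arrays (5). Benjamini-Hochberg adjustment ran over all genes tested, with a threshold of 0.05. The scripts were tested on simulated data.

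All 6 carriers are named. From 15 other gene lists, up to 4 genes that passed were allowed by size of change, and for each carrier the 3 genes with the highest r. The carriers, the lists and the rules were chosen with earlier results of these data known. Not every gene allowed is printed. Of 251 list entries, 26 had no single-symbol probe set. Alternatives changed the scale, pseudocount, filter, probe set, variance model and arrays. Motifs and figures were made in Python 3.11.15 with matplotlib 3.10.9. Precision is limited by the number of arrays.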

Additional observations from a re-analysis of the deposited data

How the results depend on the processing

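Directions of the 6 strain differences held under every alternative run. The number of carriers called between the strains, 2, became 1 with arrays centred on their medians and with the mean of all probe sets, and 0 without the week block, over the 4 fed weeks alone and without the intensity trend. Slco1a4 and Slc22a7 had 1 single-symbol probe set each, so taking the mean of all probe sets could not change their differences. Leaving out 1 array gave 0 to 2. In the diet comparison the number went from 0 to 2 at the deposited scale (Slco2b1 and Slc22a7), and to 1 with centring on medians, with a pseudocount of 16 and with weeks 12 and 21 alone, and leaving out 1 array gave 0 to 1. In B6 it was 0 to 1 with 1 array left out. Genes called between the strains numbered 883 and 385 to 721 with 1 array left out (432 higher and 451 lower in D2, against 208 and 403 at the deposited scale). Genes called on the diet numbered 72, 14 to 93 with 1 array left out, 11 with weeks 12 and 21 alone, and 4990 at the deposited scale, where 4949 were higher. There, within B6, 1946 genes were called in place of 13, and in D2 45 in place of 13. Leaving out 1 array gave 0 to 22 in B6 and 6 to 21 in D2.

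Small values that turned sign were those of Slco1b2 on the diet (−0.0905 with the mean of probe sets, −0.0662 with the second probe set, −0.12 to 0.28 with 1 array left out) and in B6 (0.25 at the deposited scale), of Slc10a1 in D2 (0.0443 at the deposited scale), and of the Slco2b1 response between strains (0.13 centred on medians, 0.0284 centred on the tested genes, 0.0682 with the second probe set, −0.15 to 0.0592 with 1 array left out). The Slc22a7 response between strains ran from −0.0123 to 0.73, the Slco1a4 slope from −0.12 to 0.12 (0.0097 on the linear week) and the Slc22a7 slope from −0.24 to 0.16. None of these was called, and the causes were not tested. Centring on the tested genes, the second probe set and leaving out both week 4 arrays were chosen after seeing the data. The labels give no replicate numbers. The strain comparison is paired by week, with 1 B6 and 1 D2 pool in each of 5 pairs.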
